A study of Mus musculus with 4 samples.

Results

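Ly6i, Ly6a, Ly6e and Ly6c1 are the genes of the Ly6 cluster on mouse chromosome 15, other than Ly6c2, that are described here in Ly6C-high classical monocytes of the bone marrow. They make up 4 of the 27998 genes in the count matrices, and all 4 had UMIs (unique molecular identifiers, each standing for 1 captured RNA molecule) in both sexes. The 4 genes were chosen by their measured values in old and young mice of these data and by how often they were found in the same cells, so those values are given as a description, with no test. Tests were kept for measures that did not choose them: classes of cells defined by other genes, the Ly6C protein on the cell surface, and genes outside the 4, Ly6c2 among them.

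The mice were wild-type C57BL/6. Young males were 14 weeks old and old males 27 months old, and young females were 15 weeks old and old females 26.5 months old, with 5 mice in each age group of each sex. Monocytes were sorted from bone marrow as Ly6G- CD11b+ CD115+ Ly6C-high cells, so each value describes cells already selected for high surface Ly6C. Each mouse carried its own hashtag antibody and the 10 mice of a sex were sequenced as 1 pooled library, so a difference between the sexes cannot be told apart from a difference between the libraries, and ages were compared within each sex.

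Ly6 proteins are small, cysteine-rich proteins, most of them held in the outer leaflet of the cell membrane by a glycosylphosphatidylinositol anchor, and many of their genes respond to interferons. Ly6a encodes Sca-1, used to mark haematopoietic stem cells and also displayed by activated lymphocytes. Ly6e is a widely expressed, interferon-inducible member known for effects on virus entry. Ly6c1 and Ly6c2 encode the Ly6C antigen by which mouse monocytes are sorted, and Ly6i is a close relative with a less well described function.

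The 4 genes and Ly6c2 lay within a short stretch of chromosome 15 in GENCODE vM21 on GRCm38. Ly6e (ENSMUSG00000022587, chr15:74955051-74959905) was on the plus strand, and the others were on the minus strand: Ly6i (ENSMUSG00000022586, chr15:74979534-74983430), Ly6a (ENSMUSG00000075602, chr15:74994877-74998031), Ly6c1 (ENSMUSG00000079018, chr15:75044018-75048830) and Ly6c2 (ENSMUSG00000022584, chr15:75108158-75111970). Ly6i and Ly6a were neighbours, 11447 bases apart, and Ly6c1 and Ly6c2 were separated by 59328 bases. The coding sequences of Ly6c1 and Ly6c2 were identical in 97.7% of aligned bases (387 of 396), those of Ly6i and Ly6a in 86.4% (350 of 405), and Ly6e shared 50.5% to 53.8% with the other 4 genes.

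How far reads can separate the genes is seen in the ends of their coding sequences, near the 3′ end that the library method captures. The last 150 coding bases with the stop codon are shown 5′ to 3′ on the coding strand, each lying in a single exon, with capitals at the positions where the members of a pair differ.
Ly6c1 (chr15:75045402-75045551, minus strand): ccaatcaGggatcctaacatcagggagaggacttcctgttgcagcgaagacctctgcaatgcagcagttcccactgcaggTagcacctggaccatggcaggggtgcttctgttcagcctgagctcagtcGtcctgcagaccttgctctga
Ly6c2 (chr15:75108543-75108692, minus strand): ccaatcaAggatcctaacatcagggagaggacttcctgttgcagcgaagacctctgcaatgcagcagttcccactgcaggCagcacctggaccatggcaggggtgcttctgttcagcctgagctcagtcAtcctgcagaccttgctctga
Ly6i (chr15:74979914-74980063, minus strand): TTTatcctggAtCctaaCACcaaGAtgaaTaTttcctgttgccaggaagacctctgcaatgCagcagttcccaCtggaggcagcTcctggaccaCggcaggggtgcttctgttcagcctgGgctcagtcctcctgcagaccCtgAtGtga
Ly6a (chr15:74995262-74995411, minus strand): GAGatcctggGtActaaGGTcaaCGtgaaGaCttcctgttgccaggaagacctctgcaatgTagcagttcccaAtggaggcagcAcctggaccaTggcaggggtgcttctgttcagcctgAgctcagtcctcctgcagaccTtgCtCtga

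Ly6c1 and Ly6c2 differed at 3 of these 150 positions and Ly6i and Ly6a at 20. Over the last 300 bases of the transcripts, 35 of 211 windows of 90 bases (16.6%) were identical between Ly6c1 and Ly6c2, and no such window was shared by any other pair of the 5 genes. Ly6i, Ly6a and Ly6e could therefore be counted apart from one another over these ends, whereas reads from part of the Ly6c1 and Ly6c2 ends could not be told apart, and the Ly6c1 counts are uncertain for that reason. Of the members, the promoter windows from RefSeq used here covered Ly6c1 alone, and none of the windows of Ly6c1 or Ly6c2 held the interferon-stimulated response element core (GAAA, any 2 bases, GAAA) or the gamma-activated site TTCNNNGAA on either strand. Those letters were present in 3.44% and 8.30% of the 32851 windows, respectively.

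A total of 6641 female cells (3009 of old mice, 3632 of young mice) and 1227 male cells (526 and 701) were used, and no barcode was shared between the libraries. Summed UMIs per mouse ran from 2827638 to 18186954 in females and from 330586 to 1108320 in males, so the male values rest on far fewer molecules, with as few as 49 cells in an old male. The median UMI count per cell was 9700 to 13033 among the old and 7978 to 8990 among the young females, and 4490 to 8844 and 3806 to 4456 among old and young males, so depth per cell moved with age and its part in the age differences was not tested. Every one of the 6641 female cells, and 1207 of the 1227 male cells, held at least 2 of the 6 classical monocyte markers. Cells with at least 2 markers of T or NK, B, plasma, basophil, plasmacytoid dendritic, endothelial or erythroid cells numbered 137 in females and 35 in males. Levels below are CPM, the UMIs of a gene scaled to 1000000 UMIs per mouse, for 5 mice per group, with the SD, and in these sums more cells with the RNA and more RNA per cell cannot be told apart. A fold change is the log2 difference of old minus young from a quasi-likelihood fit of edgeR over all genes, with its standard error.

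Ly6i was higher in old than in young females without overlap. The old females had 34.0, 33.4, 25.1, 20.9 and 31.2 CPM (28.9 ± 5.68), and the young females 9.50, 10.4, 4.95, 11.4 and 8.74 CPM (9.0 ± 2.48). The lowest old female thus lay above the highest young female, the log2 difference being 1.54 (SE 0.16).

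The old males were spread much more widely. They had 13.5, 121.7, 196.9, 6.54 and 175.4 CPM of Ly6i (102.8 ± 89.1), against 10.9, 11.4, 5.82, 13.1 and 6.59 CPM in the young males (9.56 ± 3.18). Old males 2, 3 and 5 exceeded every young male by a wide margin, old male 1 lay just above the highest young male, and old male 4, with 3 Ly6i UMIs in 49 cells, lay among the young males. The log2 difference was 3.31 (SE 0.40) in a fit of every gene with a UMI, since Ly6i did not pass the filter on low counts in males. It ran from 2.81 to 3.67 when single mice were left out. The SE is that of the fit and is no measure of the wide spread among the old males. The same fit called 95 genes by age in males, against 0 in the filtered fit.

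**Figure D1:**
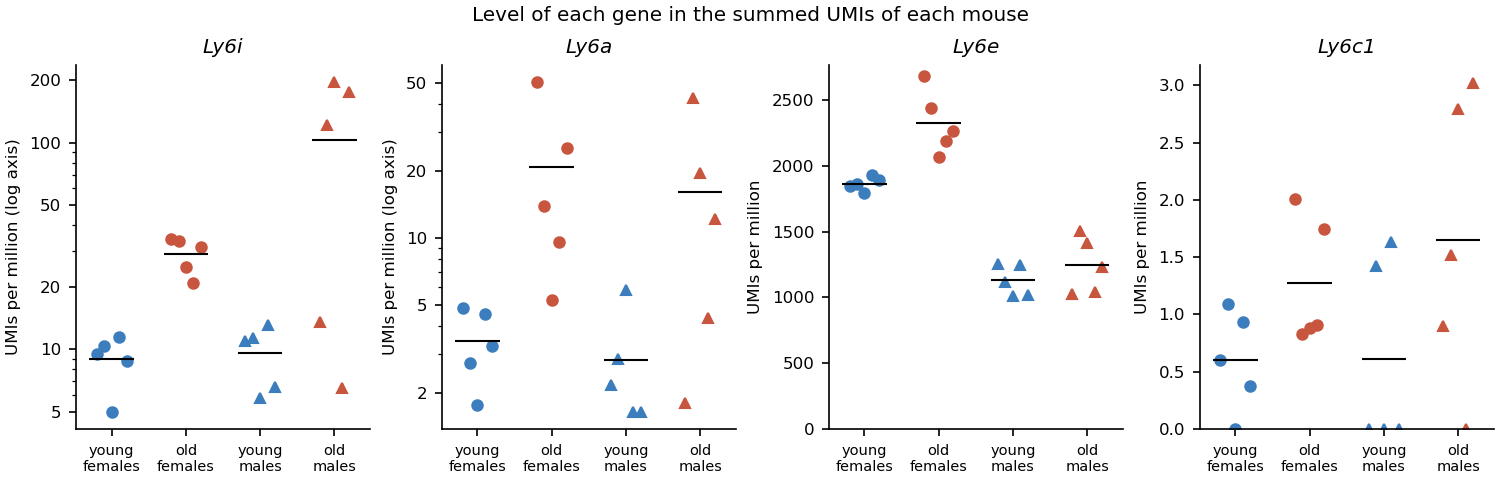
Level of Ly6i, Ly6a, Ly6e and Ly6c1 in each mouse, in CPM, by age and sex. Points are single mice and bars mark the mean of 5 mice; the Ly6i and Ly6a axes are logarithmic. In females the old and young mice do not overlap for Ly6i, Ly6a and Ly6e but do for Ly6c1, and in males they overlap for all 4 genes, with old males 2, 3 and 5 high for Ly6i.

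Ly6i was found in 832 of 6641 female cells (12.5%, 1471 UMIs) and in 127 of 1227 male cells (10.4%, 331 UMIs). The share per mouse was 19.8% ± 5.74 in old and 7.14% ± 2.34 in young females, and 20.2% ± 13.7 in old and 4.66% ± 1.52 in young males. With every cell thinned to 2000 UMIs, which left out 4 female and 58 male cells below that depth, the mean shares were 6.61% and 2.08% in females and 10.4% and 2.43% in males, in the same order as without thinning. A Ly6i-positive cell held 1.84 to 2.15 UMIs on average in old and 1.21 to 1.70 in young females, without thinning, so that the deeper cells of old mice enter these values. It held 1.36, 2.76, 4.15, 1.0 and 3.41 UMIs in old males 1 to 5 and 1.0 to 1.14 in young males, so old males 1 and 4 lay near the young males here too. These means can rest in part on single cells. A single cell gave 21 of the 63 Ly6i UMIs of young female 1, and a single cell 34 of the 141 of old male 3. Among female cells with T or NK markers, all of which also held monocyte markers, 4 of 43 (9.30%, exact binomial interval 2.59% to 22.1%, median depth 12205 UMIs against 9562 in the others) had a Ly6i UMI, as did 9 of 63 with erythroid markers (14.3%, exact binomial interval 6.75% to 25.4%, median depth 7756 against 9601 UMIs). In males 2 of 28 cells with basophil markers (7.14%, exact binomial interval 0.877% to 23.5%, median depth 2434 UMIs against 4556) had one. These were not the highest types. A Ly6i UMI was found in 4 of 11 female cells with plasma cell markers (36.4%, exact binomial interval 10.9% to 69.2%). In males it was found in 2 of 4 cells with erythroid markers. Over all the other types together it was found in 18 of 137 female (13.1%) and 4 of 35 male cells (11.4%). These cells also held monocyte UMIs and are few. The shares of every young female (3.47% to 9.55%) and of old female 4 (13.2%) did not exceed the erythroid level, and those of every young male (2.84% to 6.30%) and of old males 1 and 4 (5.34% and 6.12%) did not exceed the basophil level, and none of these is read as expression in a defined fraction of cells. The levels depend on the type chosen. The erythroid interval also held old females 2, 3 and 5 (20.2%, 14.9% and 25.2%), and the plasma cell level lay above every female share (25.7% at most). The remaining mice are thus not read as above a background either.

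Ly6a, the Sca-1 gene, was also higher in every old female than in any young female, with a large spread among the old. The old females had 50.4, 13.9, 5.27, 9.56 and 25.3 CPM (20.9 ± 18.1), and the young females 4.82, 2.74, 1.77, 4.56 and 3.24 CPM (3.43 ± 1.28). Old female 3 lay just above the highest young female, and old female 1 set much of the mean. The log2 difference was 2.34 (SE 0.55) with all mice and 1.71 without old female 1.

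In males Ly6a was rare, with 60 UMIs in 36 of 1227 cells (2.93%). The old males had 1.80, 42.6, 19.6, 4.36 and 12.1 CPM (16.1 ± 16.4) and the young males 2.18, 2.85, 5.82, 1.64 and 1.65 CPM (2.83 ± 1.75). Old males 2, 3 and 5, which were also those with high Ly6i, lay above the young males, and old males 1 and 4, with 2 Ly6a UMIs each, lay within their range. The log2 difference of 2.39 (SE 0.55, every gene with a UMI, with the limit given for Ly6i in males) became 1.54 without old male 2.

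Part of the female Ly6a signal came from few cells. Ly6a was found in 404 of 6641 female cells (6.08%, 828 UMIs), against 1 of 63 cells with erythroid markers (1.59%, exact binomial interval 0.0402% to 8.53%, median depth 7756 UMIs against 9601) and 10 of 43 with T or NK markers (23.3%, 11.8% to 38.6%). In single mice, a single cell gave 56 of the 276 UMIs of old female 1, a single cell 56 of the 159 of old female 5, and a single cell 29 of the 83 of young female 4. The 11 female cells with plasma cell markers (9 from old and 2 from young mice) held 74 Ly6a UMIs, 8.94% of all, and the 7 with plasmacytoid dendritic cell markers held 3.02%. The plasma cell list summed to 3.18 to 8.96 CPM in old and 1.06 to 3.47 CPM in young females, so it moved with age too. All cells with markers of the other types together held 16.9% of female Ly6a UMIs and 2.38% of female Ly6i UMIs. Without them Ly6a was 17.5 ± 14.9 CPM in old and 3.0 ± 1.08 CPM in young females (log2 difference 2.23), and Ly6i kept a log2 difference of 1.55. Among males these cells held no Ly6a UMI and 2.42% of the Ly6i UMIs. Cells with neutrophil, conventional dendritic or stem and progenitor cell markers were not counted among these types, nor taken out for those markers. In females they numbered 411, 204 and 102 and held 4.35%, 1.57% and 2.54% of Ly6a UMIs. Ly6a was found in 11 of the 102 stem or progenitor cells (10.8%) and 6.01% of the others, at median depths of 24114 and 9505 UMIs.

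Ly6e was present in nearly every cell and differed between ages by a much smaller factor. The old females had 2683, 2442, 2065, 2194 and 2268 CPM (2330 ± 239.6), and the young females 1849, 1860, 1796, 1931 and 1893 CPM (1866 ± 50.5). All old females lay above all young females, by a log2 difference of 0.33 (SE 0.06). The old males had 1030, 1503, 1416, 1044 and 1234 CPM (1245 ± 214) and the young males 1251, 1114, 1015, 1245 and 1022 CPM (1130 ± 115), and here the ages overlapped, old males 2 and 3 alone lying above every young male (log2 difference 0.14, SE 0.11). A Ly6e UMI was found in 99.98% of cells in old and 100% in young females and in 97.1% and 95.5% in old and young males, on average over mice.

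Ly6c1 was close to the limit of detection, with 76 UMIs among the female and 7 among the male cells. It was 1.28 ± 0.56 CPM in old and 0.60 ± 0.44 CPM in young females, and the groups overlapped (log2 difference 0.78, SE 0.41, every gene with a UMI, turning to -0.086 with cells thinned to 2000 UMIs). The old males had 0.90, 1.52, 2.79, 0 and 3.02 CPM and the young males 0, 1.42, 0, 1.64 and 0 CPM, values of at most 2 UMIs a mouse, and no fold is given. Its near copy Ly6c2 had 196818 and 17613 UMIs in the same cells (2590 and 2516 for each Ly6c1 UMI), and how many Ly6c1 UMIs came from misassigned Ly6c2 reads was not tested.

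In females, 3 of the 4 members (Ly6i, Ly6a and Ly6e) had every old mouse above every young mouse, a separation that 2.83% of the 10074 genes passing the filter and 1.85% of the 16511 genes with a UMI also had. In males it was 0 of the 4, where 0.99% of the 5656 filtered genes and 0.592% of the 13168 genes with a UMI were so separated. As the members were chosen on this contrast, nothing is read from these counts. The fit called 345 of 10074 genes in females at an adjusted p under 0.05 (3.42%), 204 of them higher in old mice (2.03%). In males it called 0 of 5656 genes (0%, and 0% higher in old mice), with 618 at an unadjusted p under 0.05, and 22 were called by DESeq2.

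Ly6c2, which did not enter the choice, was higher in old females by a small amount. It stood at 2693 ± 242 CPM in old and 2281 ± 45.8 CPM in young females (log2 difference 0.25, SE 0.05, adjusted p = 0.0106 by edgeR), with every old female above every young female. The lowest old female (2358 CPM) lay only just above the highest young female (2356 CPM). In males it was 2653 ± 341 and 2520 ± 206 CPM (log2 difference 0.07, SE 0.08, adjusted p = 0.787). Of 35 other genes listed for the Ly6 superfamily, Ly6c2 included, 31 were in the matrix, and 17 had a UMI in females and 9 in males. Those tested in females besides Ly6c2 were Plaur, the urokinase receptor (log2 difference 0.12, adjusted p = 0.307), Lynx1, a modulator of nicotinic receptors (-0.36, adjusted p = 0.602), and Ly6d, a marker of early lymphoid cells (1.05, adjusted p = 0.529), and none of these 3 was called. In males Plaur had a log2 difference of -0.63 (adjusted p = 0.0695) and was the only listed family gene in the filtered fit besides Ly6c2.

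The surface Ly6C protein, read by an antibody tag in females only, gave no called difference by age. Its median centred log-ratio per mouse was 2.90, 3.64, 3.74, 3.08 and 3.15 in old females (3.30 ± 0.37) and 3.5, 3.78, 3.64, 3.33 and 3.4 in young females (3.53 ± 0.18). The groups overlapped, and the difference of -0.23 had p = 0.230 in a two-sided exact permutation test. On the log2 scale of the raw antibody counts, with no centring over the 6 surface antibodies, the difference was -0.17 with an exact permutation p of 0.0159, and the call thus depended on the scale. On neither scale was the protein higher in old females, whereas Ly6c2 RNA was.

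The gene lists used for the pathways give the setting of these values. They were chosen with earlier results of these data known. The paper had already reported MHC class II genes as raised with age in these same mice. The list genes called by age are thus no independent test of the lists, least of all for the MHC-II list. Of the type I interferon response list, 6 of 33 genes tested rose with age in females and 0 fell, among them the antiviral 2′-5′ oligoadenylate synthetases Oas3 (log2 difference 0.79, adjusted p = 0.0250) and Oas2 (0.77, adjusted p = 0.0250), and Ifi27l2a (0.72, adjusted p = 0.00711). The median log2 difference of that list was 0.19, against 0.00 over all genes tested. Of the interferon-gamma response list 8 of 22 rose and 0 fell (median 0.57), including Ciita, the master regulator of MHC class II genes (2.22, adjusted p = 0.00764), the transcription factor Irf1 (0.64, adjusted p = 0.0340) and the peptide transporter Tap1 (0.64, adjusted p = 0.00411). Of the MHC-II list 5 of 7 rose and 0 fell (median 2.04), led by the antigen-presenting chains H2-Eb1 (2.62, adjusted p = 0.0161), H2-Ab1 (2.32, adjusted p = 0.0137) and H2-Aa (2.31, adjusted p = 0.0156). In the mature Ly6C-high list 2 of 11 rows rose, the proteoglycan Vcan (1.34, adjusted p = 0.000153) and the chitinase-like Chil3 (1.02, adjusted p = 0.00716), and 0 of the mitosis, NeuMo granule and Ly6C-low transition genes were called. In males no gene of any list was called, in a fit that called 0 of 5656 genes. The male median was 1.71 for the MHC-II list (6 of 6 genes above 0), 0.76 for interferon-gamma (9 of 10) and 0.33 for type I (15 of 18). It was also above 0 for NeuMo granule (0.52, 11 of 11) and mitosis (0.30, 15 of 15), against 0.01 over all genes tested in males. The mature list went the other way (-0.21, 0 of 10 above 0), with Vcan at -0.50 (SE 0.39) and Chil3 at -0.61 (SE 0.45).

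The old males with high Ly6i were also those with high sums of both interferon lists. Among these, old male 2 had the highest sum of each list and the lowest Ly6i. The interferon-gamma list summed to 3238, 2056 and 2344 CPM in old males 2, 3 and 5, above the 1188 to 1394 CPM of the young males, and to 1329 and 1266 CPM in old males 1 and 4, within the young range. The type I list separated the same mice, at 7272, 6109 and 6107 CPM in old males 2, 3 and 5 against 4170 to 5495 CPM in the young males, with 4177 and 3057 CPM in old males 1 and 4. Old male 4 also had the highest NeuMo granule (20867 CPM) and mitosis (2680 CPM) sums of the males. The mitosis sums of the other old males (1147 to 1534 CPM) lay near those of the young males (1157 to 1435 CPM). The sum of classical monocyte markers in old male 4 (15226 CPM) was the lowest of the males. The MHC-II list did not separate the same mice. It summed to 3110, 9225, 2567, 608 and 10554 CPM in old males 1 to 5, against 1419 to 2311 CPM in the young males. In females the interferon-gamma list summed to 1955 to 3341 CPM in old and 1632 to 1747 CPM in young mice. The type I list summed to 6512 to 8370 CPM in old and 5631 to 6053 CPM in young females. Old female 1, with the highest Ly6i of the females, had the lowest type I sum of the old. Neutrophil markers summed to 92.0, 1711, 1735, 4407 and 453.7 CPM in old males 1 to 5, and to 90.5 to 4000 CPM in the young males. Their order over the old males was not that of Ly6i. Basophil markers summed to 34.3, 114.1, 553.1, 30.5 and 139.1 CPM in old males 1 to 5, in the same order of mice as Ly6i. In the young males they summed to 23.0 to 482.4 CPM. Cells with basophil markers held 0.906% of male Ly6i UMIs, and the part of other cell types was not tested.

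**Figure D2:**
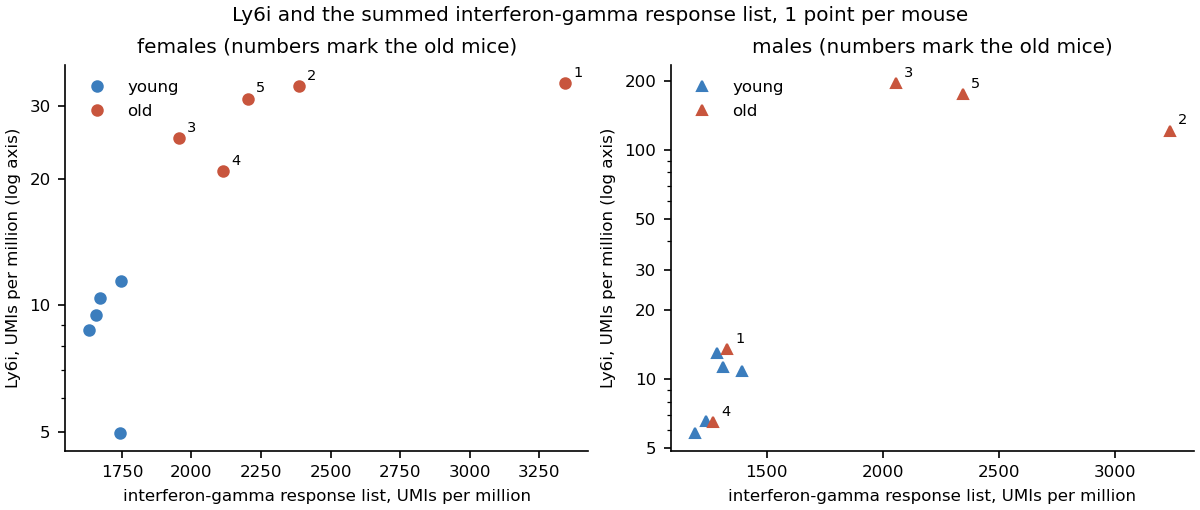
Ly6i level against the summed level of the interferon-gamma response list, both in CPM, 1 point per mouse, females at left and males at right, with old mice numbered; the Ly6i axis is logarithmic. Old males 2, 3 and 5 sit apart at 2056 to 3238 CPM of the list and 121.7 to 196.9 CPM of Ly6i, and old males 1 and 4 sit with the young males.

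To see which genes varied like the members over mice, 5650 genes were ranked for each member by Pearson's r of log2 CPM, averaged over the 2 sexes. Each r is over the 10 mice of a library, both ages included, so a shared age difference enters it, and it is given as a description. Nearest to Ly6i were Pnp, the purine nucleoside phosphorylase (mean r 0.914), Plac8 (0.907), B2m, the light chain of MHC class I (0.906), the class I heavy chain H2-K1 (0.902) and Trim30d (0.888). Nearest to Ly6a were Psmb8 (0.937), Psme2 (0.909), H2-T22 (0.908), H2-M3 (0.906) and Psmb10 (0.905), of which Psmb8 and Psmb10 are immunoproteasome subunits, Psme2 an activator of the proteasome, and H2-T22 and H2-M3 non-classical MHC class I genes. Ly6e was nearest to Plac8 (0.936), the nucleic acid sensor Zbp1 (0.933), B2m (0.924), H2-K1 (0.924) and H2-T22 (0.916). For Ly6c1, with its few UMIs, the nearest were Mtx2 (0.816), Trim30d (0.80), Sdhb (0.797), Ccdc124 (0.752) and Ifitm1 (0.747), values that rest on 7 UMIs in males.

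The members were next compared between classes of cells within each mouse, a comparison that had no part in choosing them. Cells thinned to 2000 UMIs were divided at the top 25% of the summed UMIs of a list that holds no member, cells tied at the limit going to the high class, which thus held 25.0% to 38.3% of the cells of an age and sex, and the high cells were set against the rest of the same mouse, with the mouse as a block and all 20 mice used in their own sex. Differences below are log2 of high minus rest. Ly6e and Ly6c2 are taken from the fit of genes passing the filter. Ly6i and Ly6a, which failed that filter in most of these fits, are taken from the fit of every gene with a UMI. In it the median gene moved by -0.05 to -0.02 in females and by -0.21 to -0.14 in males relative to the filtered fit. Its variance is shared over genes, most of them too low to pass the filter. Its SE and adjusted p are thus no measure of the spread between mice, which the SD and the numbers of mice show.

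Ly6i was higher in cells high for the type I interferon response list. In females it stood at 86.1 ± 14.4 CPM in the high cells and 27.2 ± 8.75 CPM in the rest of old mice, and at 32.8 ± 22.7 and 5.40 ± 2.75 CPM in young mice, with high above rest in 9 of 10 females (log2 difference 1.98, SE 0.16, adjusted p = 1.5e-31). In males it was higher in the high cells of 9 of 10 mice and equal in the other, with a log2 difference of 1.70 (SE 0.27, adjusted p = 2.0e-08). Ly6a had a difference of 1.29 (SE 0.24, adjusted p = 6.3e-07) in females and of 0.52 (SE 0.72, adjusted p = 0.867) in males. Ly6e differed by 0.47 (SE 0.03, adjusted p = 2.6e-27), with high above rest in 10 of 10 females, and by 0.36 (SE 0.07, adjusted p = 0.000104) in males, where the fit of every gene with a UMI gave 0.14 (adjusted p = 0.437). Ly6c2 went another way, at -0.01 (adjusted p = 0.775) in females and -0.35 (SE 0.08, adjusted p = 0.00156) in males, where it was lower in the high cells of 10 of 10 mice.

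These calls are to be read against how many genes passed in the same contrast. By the filtered fit 48.9% of genes were called in females and 39.5% in males, which included Ly6i and Ly6e in females and Ly6e in males, the other members having failed the filter. By the fit of every gene with a UMI the shares were 22.6% and 7.49%. The high cells were the shallower ones before thinning, with median depths of 8129 against 13540 UMIs in old and 6951 against 11368 UMIs in young females, so cell depth moved with this class, and its part was not tested beyond the thinning.

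The interferon-gamma response list set apart fewer genes, and Ly6i, Ly6a and Ly6e were again higher in the high cells of females. Among females 10.7% of filtered genes (4.26% of all genes with a UMI) were called, and Ly6i differed by 1.43 (SE 0.16, adjusted p = 5.4e-16), Ly6a by 1.19 (SE 0.23, adjusted p = 1.9e-05) and Ly6e by 0.25 (SE 0.03, adjusted p = 1.0e-12), with high above rest in 8, 9 and 10 of 10 females. In males, with 2.74% (0.705%) of genes called, Ly6i differed by 1.51 (SE 0.27, adjusted p = 5.7e-06), with high above rest in 6 of 10 mice and below in 3. That difference came from the old males (291 ± 311 CPM in the high cells against 84.5 ± 94.0 CPM in the rest), and in young males Ly6i was 9.40 ± 11.6 against 14.6 ± 5.51 CPM, in the other direction. Ly6e differed by 0.27 (SE 0.07, adjusted p = 0.0110) in males in the filtered fit, and by 0.13 (adjusted p = 0.964) in the fit of every gene with a UMI. Ly6a was 25.2 CPM in the high cells and 4.29 CPM in the rest of the males, a difference of 1.71 that did not pass (SE 0.69, adjusted p = 0.455). Ly6c2 was on the side of the members in females here, at 0.047 to 0.089 over 7 alternative settings. Its call differed from that of the main fit in 6 of the 7. In males it ran from -0.21 to 0.02 over the alternatives.

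Of the 6 lists, the MHC-II list gave the highest Ly6i difference between high cells and rest in males. In old females Ly6i was 89.1 ± 23.6 CPM in the MHC-II-high cells against 22.9 ± 6.07 CPM in the rest, and in young females 19.2 ± 10.8 against 9.13 ± 3.45 CPM. In old males it was 424 ± 381 against 34.1 ± 37.1 CPM and in young males 17.4 ± 16.0 against 11.1 ± 5.98 CPM, the old males again being the most spread. The log2 difference was 1.67 in females (SE 0.16, adjusted p = 4.6e-22, 9 of 10 mice) and 2.99 in males (SE 0.29, adjusted p = 2.5e-21, 7 of 10 mice, 2 below). With the old males so spread and 2 mice in the other direction, the male p is no measure of how alike the mice were. Cells with at least 2 conventional dendritic cell markers did not have Ly6i more often. Without thinning, it was found in 16 of 204 such female cells (7.84%) and 12.7% of the others. Their median depths were 12667 and 9529 UMIs. In males it was found in 0 of 34 such cells and 10.6% of the others.

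Ly6a differed by 1.87 between the same classes in females (SE 0.23, adjusted p = 5.2e-14) and by 2.03 in males without passing (SE 0.68, adjusted p = 0.0742). Ly6e differed by 0.18 (SE 0.03, adjusted p = 9.2e-05) in females and was not called in males, where its sign changed with the fit (0.10 with the filter and -0.06 without). Ly6c2 was lower in the MHC-II-high cells, by -0.12 in females (SE 0.03, adjusted p = 0.00402, 10 of 10 mice) and by -0.60 in males (SE 0.09, adjusted p = 1.8e-05, 9 of 10 mice). The contrast called 24.6% of filtered genes in females and 22.2% in males, and 10.4% and 3.29% of every gene with a UMI. Cells with markers of the other types were 2.57% of the MHC-II-high and 1.79% of the remaining female cells. Without them Ly6a was 31.0 and 8.25 CPM in high cells and rest, against 33.9 and 10.4 CPM with them.

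**Figure D3:**
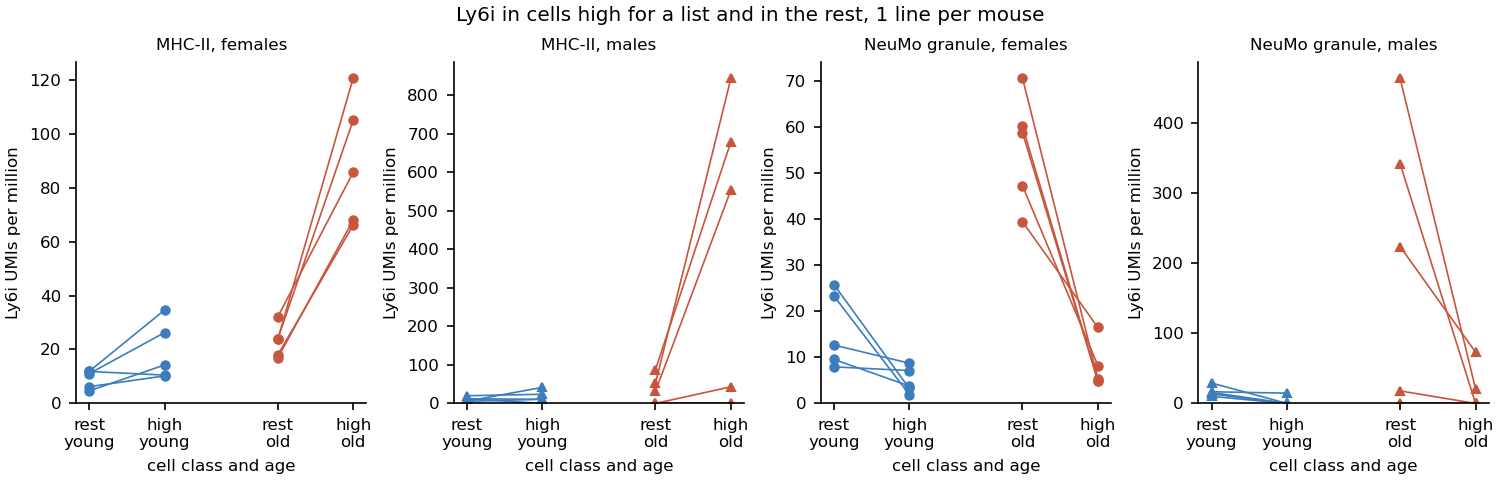
Ly6i level in the cells high for the MHC-II or the NeuMo granule list and in the rest of the cells, in CPM after thinning, by age and sex; each line joins the values of 1 mouse, and the vertical scales differ between panels. Ly6i stands higher in the MHC-II-high cells of 9 of 10 females and lower in the NeuMo-granule-high cells of 10 of 10 females and 9 of 10 males.

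In the opposite direction, Ly6i was lower in cells high for the NeuMo granule list, neutrophil-like genes such as Elane, Mpo, Ctsg, Camp, Ltf and S100a8. It was found in 1.18% of the high and 5.53% of the remaining thinned female cells, and in 0.955% and 8.74% of the male cells. The log2 difference was -2.29 in females (SE 0.24, adjusted p = 2.2e-20, lower in 10 of 10 mice) and -3.07 in males (SE 0.41, adjusted p = 7.1e-12, lower in 9 of 10 mice and equal in the other). Ly6e was lower as well, by -0.38 in females (SE 0.04, adjusted p = 1.4e-12, 10 of 10 mice) and -0.30 in males (SE 0.08, adjusted p = 0.00196, 9 of 10 mice), and Ly6a by -0.90 in females (SE 0.28, adjusted p = 0.00589). Ly6c2 was higher in these cells, by 0.18 in females (SE 0.04, adjusted p = 0.000212) and 0.50 in males (SE 0.07, adjusted p = 9.5e-07). This was the class with the most called genes in females, at 58.2% of filtered and 29.6% of all genes with a UMI, and in males the shares were 41.2% and 6.75%. Cells with at least 2 neutrophil markers, some of them genes of this list, did not show such a difference. Without thinning, Ly6i was found in 49 of 411 such female cells (11.9%) and 12.6% of the others. In males it was found in 6 of 39 (15.4%) and 10.2%. These cells were deeper, at medians of 11913 against 9510 UMIs in females and 6665 against 4487 in males.

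Cells high for the mitosis list, which marks dividing cells, also had less Ly6i. The log2 difference was -2.65 in females (SE 0.26, adjusted p = 1.9e-23, 10 of 10 mice) and -3.01 in males (SE 0.42, adjusted p = 3.6e-11, 7 of 10 mice, higher in 2). Ly6a was lower by -1.84 in females (SE 0.32, adjusted p = 1.1e-07), with 8.76 ± 7.40 against 39.4 ± 37.5 CPM in old mice but 3.24 ± 3.52 against 2.93 ± 2.29 CPM in young mice, and Ly6e by -0.12 (SE 0.03, adjusted p = 0.000937) in females with 0.00 (SE 0.08) in males. The shares of genes called were 47.7% (23.5% of every gene with a UMI) in females and 39.9% (9.03%) in males. Both the NeuMo-granule-high and the mitosis-high cells were the deeper ones before thinning, the latter with medians of 18106 against 9034 UMIs in old females.

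The mature Ly6C-high list, with genes such as Ccr2 and Fn1, did not move Ly6i past the threshold. Its log2 difference was -0.29 in females (SE 0.18, adjusted p = 0.349) and -0.99 in males (SE 0.32, adjusted p = 0.0509). Ly6a was lower in the high cells of females by -0.92 (SE 0.29, adjusted p = 0.00915, 8 of 10 mice), and the difference of 0.10 in Ly6e (SE 0.03, adjusted p = 0.00255) became 0.04 (adjusted p = 0.360) in the fit of every gene with a UMI. The fits called 42.6% (18.9%) of genes in females and 23.8% (4.3%) in males.

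By surface Ly6C, taken as the centred log-ratio over the surface antibodies, Ly6c2 went one way and Ly6i, Ly6a and Ly6e the other. No division on raw antibody counts was made, so the part of the other antibodies in this class was not tested. Female cells in the top 25% of the antibody signal of their mouse had more Ly6c2 RNA than the rest (log2 difference 0.32, SE 0.03, adjusted p = 1.9e-14, higher in 10 of 10 mice) and less Ly6i (-1.21, SE 0.21, adjusted p = 3.9e-07, lower in 10 of 10), less Ly6a (-1.37, SE 0.30, adjusted p = 0.000169, lower in 9 of 10) and slightly less Ly6e (-0.10, SE 0.03, adjusted p = 0.00765, lower in 7 of 10). Ly6c1 had 3 UMIs in the high cells and 4 in the rest, 1.35 and 0.198 CPM on average over mice (0.87, SE 1.25, adjusted p = 0.830). Ly6i UMIs were found in 2.44% of the high and 4.98% of the remaining thinned cells. The shares of genes called here were 23.7% of filtered genes and 9.65% of every gene with a UMI. The surface-high cells were deeper before thinning, at medians of 15613 against 9516 UMIs in old females.

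**Figure D4:**
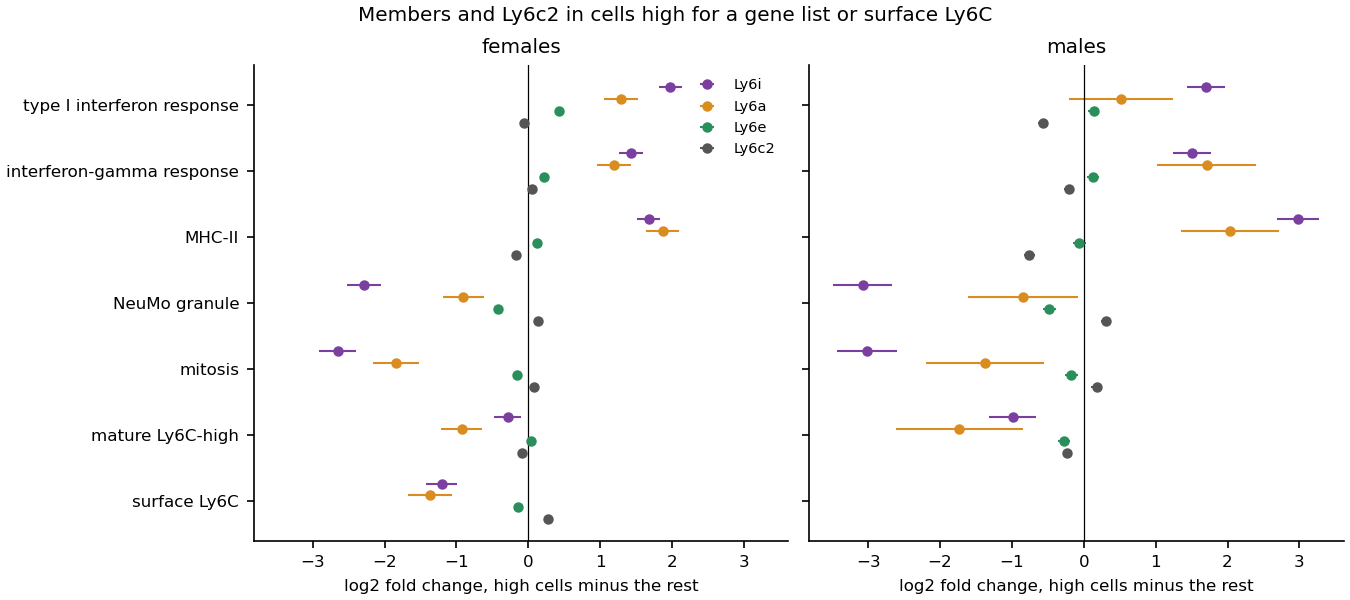
Log2 difference (± SE) of Ly6i, Ly6a, Ly6e and Ly6c2 between the cells high for a list, or for surface Ly6C, and the rest of the cells of the same mice, females and males, from the fit of every gene with a UMI. Ly6i is above 0 for the 2 interferon lists and the MHC-II list and below 0 for NeuMo granule, mitosis and surface Ly6C; of the 4 genes, Ly6c2 alone is above 0 for surface Ly6C.

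The age difference of Ly6i was also computed in the cells outside the top 25% of each interferon list, taken within each mouse. Outside the top 25% of the type I list the old-minus-young log2 difference of Ly6i was 1.63 in females and 3.02 in males, and outside that of the interferon-gamma list 1.53 and 2.43. For Ly6a it was 2.44 and 2.27 in females outside the 2 lists, and 2.76 and 1.09 in males. These are the same mice and genes on which the members were chosen, and they are given as a description. As the limit was set within each mouse, the remaining cells were not matched between ages. Their median type I score was 12 in old and 10 in young females, and 7 and 8 in males. For the interferon-gamma list it was 3 and 2 in females, and 2 and 2 in males. Whether the age difference of Ly6i depends on the interferon response was not tested.

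Ly6i and Ly6a, neighbours on the chromosome, were found together more often than independence within each mouse would give, on few cells. In thinned female cells 20 held both, where 7.02 would be found if the genes were independent within each mouse (ratio 2.85, SD 1.99 over mice), and all 20 came from old mice, where 6.55 were expected, with 0 against 0.474 in young mice. With all UMIs of a cell, which adds the effect of depth, 117 cells held both against 71.0, made up of 97 against 62.3 in old and 20 against 8.71 in young mice. Whether young mice had an excess at equal depth could not be told, as only 0.474 cells were expected there after thinning. In males 3 cells held both against 2.01, too few to compare. Ly6e, being in nearly all cells, was found with Ly6i as often as its abundance implies (270 cells against 266.6). No thinned cell held Ly6c1 with Ly6i or Ly6a in females, where 0.312 and 0.18 were expected.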

How the data were processed

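Bone marrow monocytes of 20 mice were profiled by droplet single-cell RNA sequencing with hashtag antibodies and, in females, 6 surface antibodies. The deposited matrices hold raw UMI counts per feature and cell, which the authors made with Cell Ranger; the submitters' notes name Cell Ranger 4.0.0 and STAR 2.5.1. Cells went to the mouse of their leading hashtag (median 91.5% of hashtag counts in females, 96.2% in males). Of 10433 female barcodes, HTODemux (Seurat 5.3.0) called 7013 singlets, 2478 doublets and 942 negatives, and singlets were kept. All 1227 male barcodes were kept, since the male matrix held no barcode that HTODemux called negative and seemed to have been filtered before deposit. That is uncertain, as HTODemux called 401 of them doublets, whose UMIs may belong to more than 1 mouse; with singlets alone the male log2 difference of Ly6i by age was 3.35 and of Ly6a 2.17. Cells needed over 200 genes and under 5% mitochondrial UMIs.

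UMIs were summed per mouse, or per mouse and cell class after thinning to 2000 UMIs, and tested across all genes by edgeR 4.0.16 (quasi-likelihood test, TMM, filterByExpr, two-sided) with Benjamini-Hochberg adjustment in R 4.3.3; genes of the list used to divide the cells were left out. DESeq2 1.42.0, no filter, other thinning and divisions, and leaving out each mouse were alternatives. Surface counts were tested by exact permutation of per-mouse medians, where the smallest two-sided p for 5 against 5 is 0.00794. The filtered edgeR fits by age and by the interferon-gamma list were run on simulated counts with the same spread for every gene. That run did not cover the fits of every gene with a UMI, from which most Ly6i and Ly6a values of the classes came. Intervals cover counting error only.

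The members and all lists were chosen with earlier results of these data known. Genes named beyond the members were Ly6c2, other Ly6 family genes tested, the 3 called genes with the largest change in females from each list, and the 5 genes most like each member. The cells without markers of other types, and the unfiltered age fit, were added after the data were seen. Hashtags mark separate mice, and each sex is a single library. Sequences and positions came from GENCODE vM21, and promoters from RefSeq.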

Additional observations from a re-analysis of the deposited data

Results flagged for a closer look

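In the search for a sample far from its group, 22 groups of 5 mice were examined, and chance flags about 1 in 20 such groups. The Ly6a level of young male 3, 5.82 CPM from 4 UMIs in 2 of its 141 cells, lay far above the other 4 young males (1.64 to 2.85 CPM).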

How the results depend on the processing

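No paired analysis by age was possible because the old and young mice were different animals, which the mouse numbers in the labels do not link. The class comparisons within mice had the mouse as a block. The number of genes called by age in females (345) was 194 to 522 with single mice left out (522 without old female 4, and 214, 194, 216 and 215 without young females 1, 2, 4 and 5) and 160 after thinning. In males (0) it was 95 with no filter, 22 by DESeq2, 1 without cells with markers of other types, and 0 to 39 with single mice left out (39 without old male 1, 24 without old male 4). The age difference of Ly6c1 in females reversed to -0.086 after thinning. Of 176 age values of the members and Ly6c2, 173 moved by less than the spread between mice, and Ly6a in males fell to 1.09 outside the interferon-gamma-high cells. Of 215 class values, 184 kept direction and call, 24 lost the call and 7 gained it. Both totals include the alternative of HTODemux singlets, which in females is the main setting itself and could not differ. The count of members called out of 4 changed as follows, fewer or more genes passing the filter being part of each alternative. For the alternatives other than no filter, the share of all genes called is not given here. These counts are thus not read as a result about the members. With no filter, and in old mice alone, it was 3 for the female type I, interferon-gamma, MHC-II and surface Ly6C classes (2 each). With no filter it was also 3 for the female NeuMo granule and mitosis lists (1 each), 2 for the male NeuMo granule list (1) and 1 for the male MHC-II, mitosis and mature lists (0 each). In young mice alone it was 1 for the female type I, interferon-gamma and MHC-II lists (2 each) and 0 for the female mature list (1), female surface Ly6C (2) and the male interferon-gamma and NeuMo granule lists (1 each). In old mice alone it was 2 for the female NeuMo granule, mitosis and mature lists and the male type I list (1 each), and 0 for the male interferon-gamma list. Thinning to 1000 UMIs gave 1 for the female type I, interferon-gamma and MHC-II lists and surface Ly6C, a division at the top 50% gave 1 for the female type I list, 2 for the female NeuMo granule list and 0 for the male interferon-gamma and NeuMo granule lists, and DESeq2 gave 1 for surface Ly6C. Surface Ly6C by age was -0.17 on raw counts and -0.34 to -0.13 with single mice left out. With male HTODemux singlets alone, 0 cells held both Ly6i and Ly6a. The cause of these shifts was not tested.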
